A study of Mus musculus with 6 samples.

Results

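ChREBP, the carbohydrate response element binding protein encoded by Mlxipl, and 7 genes it is known to act on (Txnip, Arrdc4, Pklr, Khk, Gpd1, Klf10 and Thrsp) were described across the pancreatic islets of 2 obese mouse strains. The members were taken by gene name, and every non-control probe carrying 1 of these names was used, which gave 8 genes and 13 probes of the 41174 non-control probes on the array. The first strain, NZO/HiBomDife (NZO, for New Zealand Obese), carries the label diabetes-prone. The other, C57BL/6.V-Lepob/ob (B6-ob/ob), carries the label diabetes-resistant and makes no functional leptin. All animals were male, ate a fatty diet free of carbohydrate up to 18 weeks of age and then a diet with carbohydrate, and gave their islets 48 h after that change. There are 3 arrays a strain, numbered 10, 11 and 12 for NZO and 4, 5 and 6 for B6-ob/ob. Whether each holds RNA of a single mouse or of pooled mice is not in the labels, and p-values therefore measure only how far these samples spread, a spread that may be technical. Islets from before the diet change were not analysed here, so each value sets the strains against each other after carbohydrate and is not a response to it. The strains also differ in their whole genetic background and in leptin, which cannot be told apart here.

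ChREBP pairs with its partner Mlx and binds carbohydrate response elements, a pair of E-boxes with a short spacer, when glucose metabolism inside the cell rises. In liver it switches on glycolytic and lipid-making genes. In pancreatic beta cells it is known for driving Txnip, whose protein binds thioredoxin and, when high, promotes beta cell death.

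Levels are log2 intensities relative to the 75th percentile of each array, so 0 is the brightness below which 75% of an array's probes lie. A difference is NZO minus B6-ob/ob, tested with limma with Benjamini-Hochberg adjustment over 24628 kept probes and a threshold of 0.05, and intervals are 95%. All signs follow the strain labels of the scanner files. In the authors' deposited value table every column tracks an array of the other strain. Its r with that array was 0.966 to 0.984, against -0.78 to -0.52 with its own array. These r are over 18307 probes, with each probe's mean over the 6 arrays subtracted. The signs below therefore oppose those of that table. Which of these labellings is right was not tested. If the scanner labels were the swapped ones, every direction below would turn. Each array had 23621 to 24711 probes well above background, and the small number of arrays limits the precision. Pairs of NZO arrays correlated at 0.984 to 0.989, pairs of B6-ob/ob arrays at 0.968 to 0.987, and mixed pairs at 0.928 to 0.949. For these pairs no probe mean was subtracted. Slide 2 held NZO 10 and B6-ob/ob 4, slide 3 held NZO 11 and B6-ob/ob 5 and 6, and slide 1 held NZO 12 alone, so differences are also given within slides 2 and 3. Fits with slide as a block took slide as a fixed term unless a random block is named. The endocrine genes Ins1, Ins2, Gcg and Sst, which define islets, were well above background on all 6 arrays.

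Of the 13 probes, 5 cover more genome than their 60 bases and so join exons, which means that they read spliced transcript. They are shown because the Pklr call rests on 1 of them alone, while those of Txnip, Arrdc4, Khk and Gpd1 stand beside a second probe of the same gene. Each was read from the scanner files, with its span on mm9: Txnip at chr3:96363085-96363259 (+), Arrdc4 at chr7:75889774-75890048 (-), Pklr at chr3:88948907-88949425 (+), Khk at chr5:31232029-31232968 (+) and Gpd1 at chr15:99552970-99553657 (+).
Txnip A_52_P420792: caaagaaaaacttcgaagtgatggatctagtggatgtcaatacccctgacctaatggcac
Arrdc4 A_51_P482908: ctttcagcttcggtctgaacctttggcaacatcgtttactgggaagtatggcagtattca
Pklr A_51_P176042: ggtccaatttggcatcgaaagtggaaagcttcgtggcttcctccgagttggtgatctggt
Khk A_51_P490767: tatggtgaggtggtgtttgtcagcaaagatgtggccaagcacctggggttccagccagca
Gpd1 A_51_P293853: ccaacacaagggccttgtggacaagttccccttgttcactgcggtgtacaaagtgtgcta

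The carbohydrate response element was searched as CACGTG, any 5 letters and CACGTG again, on both strands of the RefSeq promoters (GRCm38.p6, 250 bases before to 50 after a start), with at most 2 of its 12 fixed letters changed. Entries were found for 6 of the 8 genes, with 8 promoters, and Gpd1 and Klf10 were not among them. A match was present in 2 of the 8 promoters, 1 of Txnip and 1 of Pklr, against 313 of 32851 promoters (0.953%) in the whole table. No promoter of the table held the exact motif. The genes were chosen as known ChREBP targets, so their share is a description. The stretches are shown with the matched 17 letters in capitals. That of Txnip lies at chr3:96557860-96557900 (+), with the match 85 to 69 bases before the start. That of Pklr lies at chr3:89136441-89136481 (+), with the match 170 to 154 bases before the start of the second of 2 promoters in the table.
Txnip promoter: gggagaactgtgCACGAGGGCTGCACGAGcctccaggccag
Pklr second promoter: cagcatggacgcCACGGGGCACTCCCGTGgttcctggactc
Counted from 1 at the 5′ end of the motif, the Txnip match differs at T5A and T16A, and the Pklr match at T5G and A13C. A single CACGTG was present in promoters of Arrdc4, Mlxipl and Khk and in 7.15% of all promoters. These are matches of letters and were not tested as binding sites.

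Transcripts of 4 of the 8 genes were higher in NZO islets: Pklr 5.07-fold, Arrdc4 2.29-fold, Gpd1 2.14-fold and Klf10 1.86-fold. None was called lower, and Txnip, Mlxipl, Khk and Thrsp did not pass the test. Of all 16384 genes, each counted by its brightest probe, 13.2% were called higher and 8.92% lower in NZO. The median difference of the 8 genes was 0.72, against -0.03 over all genes. Among the 13 probes the NZO mean was the higher at 12, and the strains did not overlap at 5, a pattern with NZO above that 18.6% of all probes showed. The 8 genes were chosen with earlier results of these data known, so their count is a description. In whole islets, fewer cells of a type and less RNA per cell cannot be told apart.

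**Figure D1:**
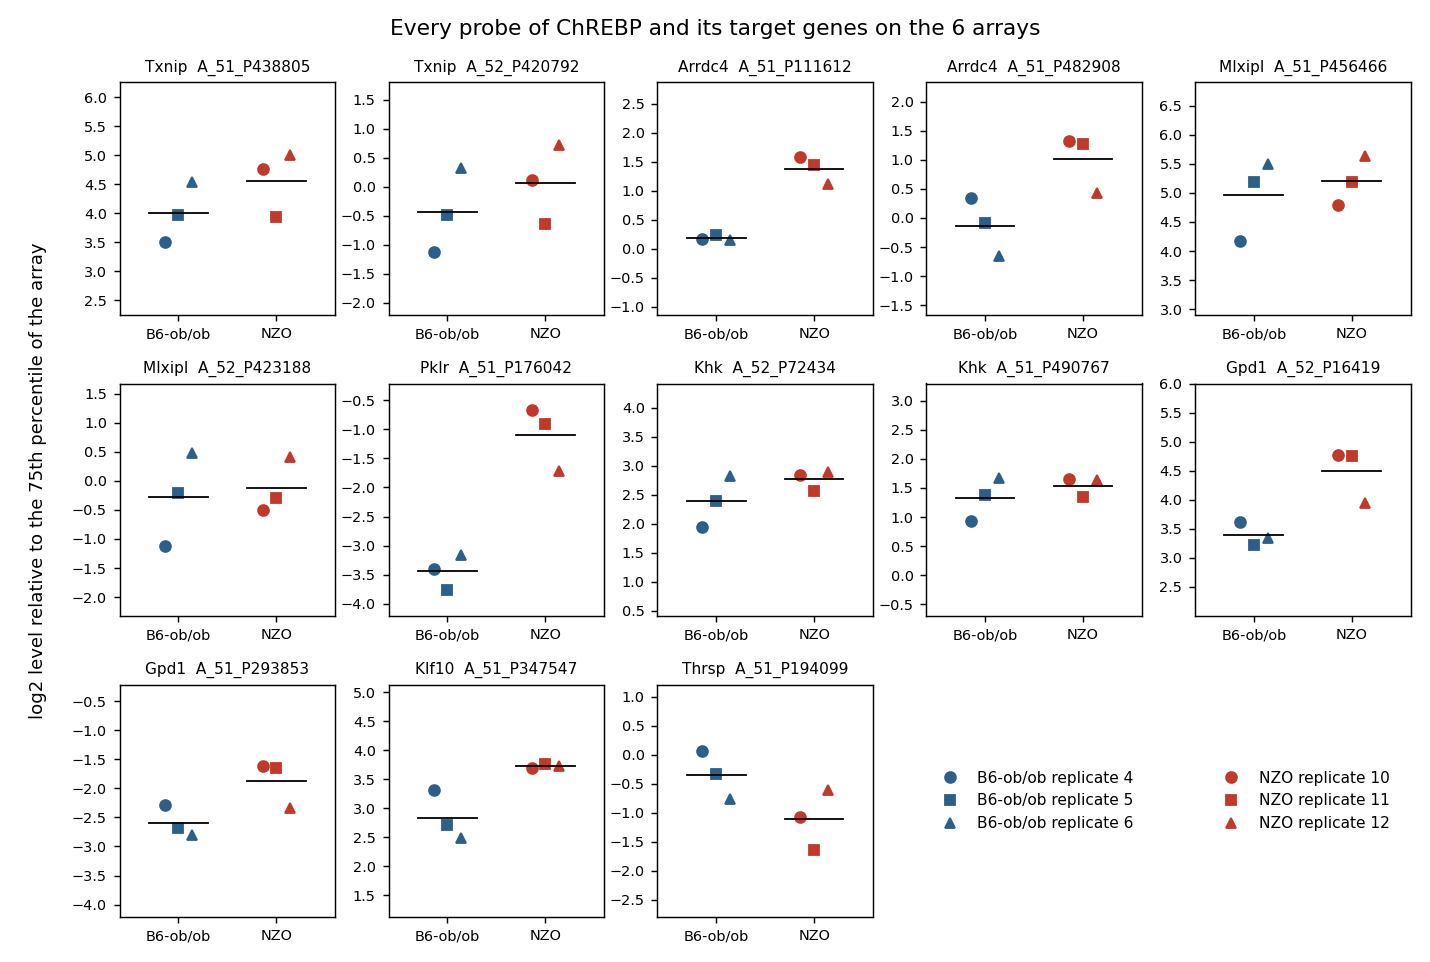
Level of each of the 13 probes on each array (log2 relative to the array's 75th percentile, vertical axis) in B6-ob/ob (blue) and NZO (red); symbols mark replicates, bars mark strain means, and every panel spans the same range of log2 units. The strains stand apart with NZO above at Pklr, Klf10, both Arrdc4 probes and the brighter Gpd1 probe, and overlap at Txnip, Mlxipl, Khk, Thrsp and the dimmer Gpd1 probe.

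The sensor itself, Mlxipl, was read by 2 neighbouring probes. At A_51_P456466 (mm9, chr5:135613505-135613564) NZO 10, 11 and 12 stood at 4.79, 5.19 and 5.63, and B6-ob/ob 4, 5 and 6 at 4.18, 5.20 and 5.50. The strains overlapped: B6-ob/ob 5 and 6 lay among the NZO arrays and B6-ob/ob 4 lay below them. The difference was 0.25 (SE 0.38, interval -0.68 to 1.17, limma adjusted p = 0.698). At A_52_P423188 (chr5:135613755-135613814) the levels were -0.50, -0.30 and 0.42 in NZO and -1.12, -0.21 and 0.47 in B6-ob/ob, a difference of 0.16 (interval -0.90 to 1.22, limma adjusted p = 0.834). Neither probe kept its direction within slides: the differences were 0.61 and 0.62 on slide 2 and -0.16 and -0.43 on slide 3. Without B6-ob/ob 4 they were -0.14 and -0.26, and without NZO 12 the dimmer probe gave -0.11.

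Of the arrestin-fold paralogs Txnip and Arrdc4, Arrdc4 passed the test and Txnip did not, and the contrast between them was not tested. Txnip was bright in both strains. At A_51_P438805 (chr3:96365147-96365206) it stood at 4.76, 3.93 and 5.0 in NZO 10, 11 and 12 and at 3.51, 3.97 and 4.55 in B6-ob/ob 4, 5 and 6. NZO 11 lay below 2 of the B6-ob/ob arrays. The means were 4.56 ± 0.56 and 4.01 ± 0.52 (SD, n = 3 each), and the difference of 0.55 (SE 0.37, interval -0.33 to 1.44, limma adjusted p = 0.338) did not pass. The interval reaches from 0.796-fold to 2.71-fold. At the junction probe A_52_P420792 the levels were 0.12, -0.64 and 0.72 in NZO and -1.12, -0.49 and 0.33 in B6-ob/ob, with a difference of 0.49 (limma adjusted p = 0.510). Both Txnip probes ranked the arrays alike within each strain. On slide 2 NZO was the higher by 1.25 and 1.24, and on slide 3 the differences were -0.33 and -0.56. Leaving out single arrays moved the brighter probe from 0.30 without B6-ob/ob 4 to 0.87 without NZO 11, and the junction probe from 0.15 without B6-ob/ob 4 to 0.87 without B6-ob/ob 6.

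Arrdc4, an arrestin-domain relative of Txnip that also restrains glucose uptake, was higher in NZO. At A_51_P111612 (chr7:75881905-75881964) the levels were 1.58, 1.44 and 1.11 in NZO and 0.16, 0.23 and 0.15 in B6-ob/ob. The lowest NZO array lay well above the highest B6-ob/ob array, and the B6-ob/ob arrays were close to each other. The difference was 1.19 (SE 0.15, limma adjusted p = 0.0031), or 2.29-fold (interval 1.78 to 2.94), and it was 1.42 and 1.24 within slides 2 and 3. The junction probe A_51_P482908 stood at 1.33, 1.27 and 0.43 in NZO and 0.34, -0.08 and -0.66 in B6-ob/ob. There the strains also did not overlap, but the difference of 1.14 (SE 0.34, limma adjusted p = 0.0600) missed the threshold, and the arrays of each strain were more spread. Within slides it was 0.99 and 1.64.

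Among the metabolic enzymes, Pklr, the pyruvate kinase of liver and red cells that ends glycolysis and a textbook ChREBP target, had the largest difference of the 8 genes. Its processed intensities at A_51_P176042 were 274, 182 and 125 in NZO 10, 11 and 12 and 34.9, 33.5 and 49.3 in B6-ob/ob 4, 5 and 6. On the log2 scale these are -0.66, -0.91 and -1.72 against -3.40, -3.76 and -3.16. The strains were far apart, although the probe was dim in both and well above background on all 6 arrays. The difference was 2.34 (SE 0.31, limma adjusted p = 0.0036), or 5.07-fold (interval 3.04 to 8.46), and it was 2.74 and 2.54 within slides 2 and 3. With background correction by normexp and an offset of 50, which draws dim values together, it was 1.43, and 1.34 with quantile normalisation, so its size depends on the treatment of background.

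Gpd1, the cytosolic glycerol-3-phosphate dehydrogenase that passes electrons from glycolysis to the glycerol phosphate shuttle, was higher in NZO at its bright probe. At A_52_P16419 (chr15:99555334-99555393) it stood at 4.78, 4.75 and 3.94 in NZO and 3.61, 3.23 and 3.33 in B6-ob/ob, without overlap. The difference was 1.10 (SE 0.26, limma adjusted p = 0.0275), or 2.14-fold (interval 1.40 to 3.29), and 1.17 and 1.47 within slides. The call was lost without NZO 10 (adjusted p = 0.0849), NZO 11 (0.0954), B6-ob/ob 5 (0.104) or B6-ob/ob 6 (0.0644). At the junction probe A_51_P293853 the levels were -1.62, -1.64 and -2.34 in NZO and -2.28, -2.69 and -2.80 in B6-ob/ob. NZO 12 lay below B6-ob/ob 4 there, and the difference of 0.72 (interval 0.13 to 1.32, limma adjusted p = 0.0883) did not pass.

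Khk, the ketohexokinase that phosphorylates fructose, did not pass at either probe. At A_52_P72434 (chr5:31233555-31233614) it stood at 2.85, 2.56 and 2.89 in NZO and at 1.94, 2.39 and 2.82 in B6-ob/ob, with a difference of 0.38 (interval -0.20 to 0.96, limma adjusted p = 0.313). At the junction probe A_51_P490767 the levels were 1.65, 1.34 and 1.63 against 0.93, 1.37 and 1.67, with a difference of 0.22 (interval -0.30 to 0.73, limma adjusted p = 0.529). The NZO arrays were close together and the B6-ob/ob arrays ran from below them to their level. Within slide 2 the differences were 0.90 and 0.72, and within slide 3 they were -0.042 and -0.18. Without B6-ob/ob 4 the differences were 0.16 and 0.019, and without B6-ob/ob 6 they were 0.60 and 0.39.

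Of the 2 regulators downstream of ChREBP, Klf10 passed as higher and Thrsp did not pass. Klf10, a zinc finger transcription factor that glucose and TGF-beta induce, stood at 3.70, 3.76 and 3.73 in NZO and at 3.32, 2.71 and 2.50 in B6-ob/ob (A_51_P347547, chr15:38224543-38224602). The NZO arrays were almost equal (SD 0.03) and all lay above the more spread B6-ob/ob arrays (SD 0.42). The difference was 0.89 (SE 0.22, limma adjusted p = 0.0330), or 1.86-fold (interval 1.28 to 2.68), with 0.39 on slide 2 and 1.16 on slide 3. The call was lost with slide as a fixed block (adjusted p = 0.0909), which leaves NZO 12 without a partner. With slide as a random block it was kept (limma adjusted p = 0.0312). With no filter on dim probes the call was lost (0.0604). It was also lost without NZO 10 (0.0870), NZO 11 (0.104), NZO 12 (0.0834), B6-ob/ob 5 (0.121) or B6-ob/ob 6 (0.0629).

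Thrsp, known as Spot 14 and tied to lipid synthesis, was the 1 member whose NZO mean was the lower. At A_51_P194099 (chr7:104565562-104565621) it stood at -1.07, -1.65 and -0.61 in NZO and at 0.06, -0.33 and -0.76 in B6-ob/ob. The strains overlapped because NZO 12 lay above B6-ob/ob 6. The difference was -0.77 (SE 0.32, interval -1.54 to 0.01, limma adjusted p = 0.145), and -1.13 and -1.11 within slides 2 and 3. It passed with slide as a fixed block (-1.12, adjusted p = 0.0288), where NZO 12 has no partner, and with array weights (-0.89, adjusted p = 0.0203). With slide as a random block it did not pass (-0.79, limma adjusted p = 0.124).

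**Figure D2:**
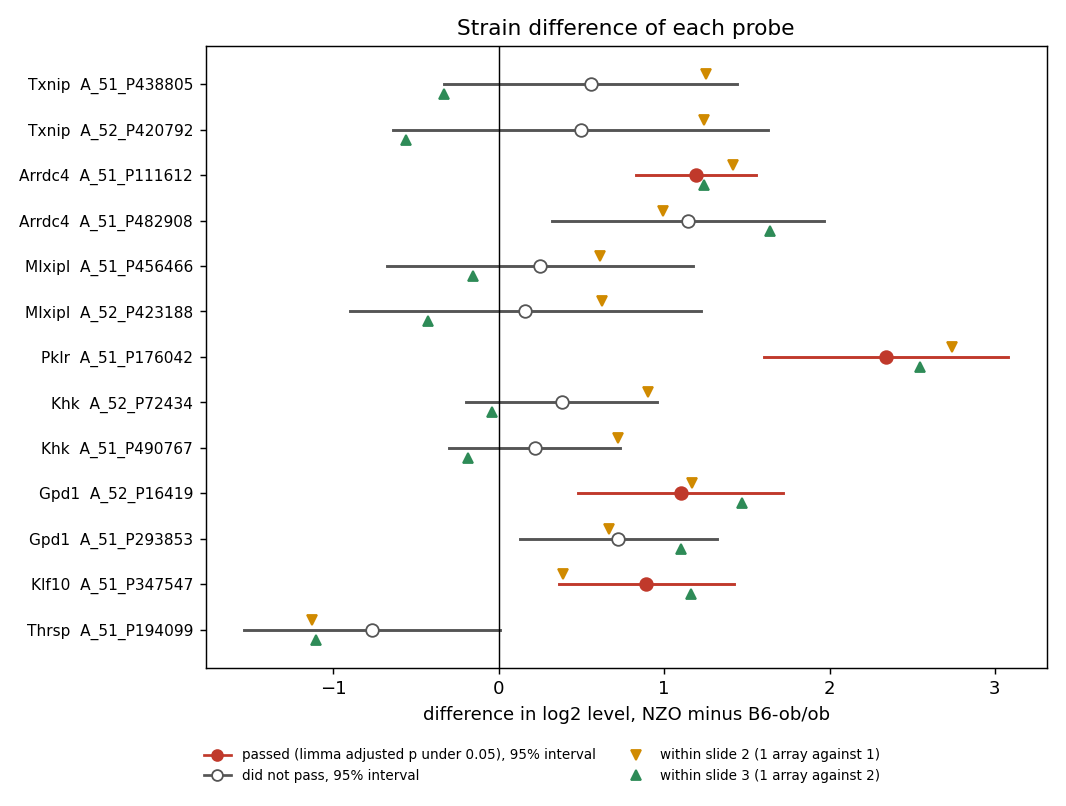
Difference of each probe between the strains (NZO minus B6-ob/ob, log2, horizontal axis) with its 95% interval; red filled points passed the limma test at 0.05, open points did not, and triangles are the differences within slides 2 and 3. Arrdc4, Pklr, Gpd1, Klf10 and Thrsp keep their side of 0 on both slides, whereas the triangles of Txnip, Mlxipl and Khk lie on opposite sides.

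The arrays within a strain did not rank the genes alike. In B6-ob/ob, Txnip, Mlxipl and Khk were all lowest in replicate 4 (-0.50, -0.78 and -0.44 from the strain mean) and highest in replicate 6 (0.54, 0.54 and 0.44). Klf10 and Thrsp ran the other way, at 0.48 and 0.40 in replicate 4 and -0.34 and -0.42 in replicate 6. On the same arrays the mean of the beta cell markers ran from -0.27 in replicate 4 to 0.34 in replicate 6, and that of the acinar markers from 0.69 to -0.72. In NZO, Arrdc4, Pklr and Gpd1 were highest in replicate 10 (0.20, 0.44 and 0.29) and lowest in replicate 12 (-0.26, -0.62 and -0.55). The mean of the macrophage markers was also lowest in NZO 12, at -0.50, whereas the acinar, beta cell and stellate means were highest there, at 0.36, 0.18 and 0.12. The beta cell order depends on how the markers are summarised. Their summed level (log2) was highest in B6-ob/ob 4, at 11.53, against 11.22 and 11.26 in B6-ob/ob 5 and 6. In NZO 10, 11 and 12 it was 11.29, 11.49 and 11.29. With 3 arrays a strain these orders carry no test, and the part of cell makeup in them was not tested.

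**Figure D3:**
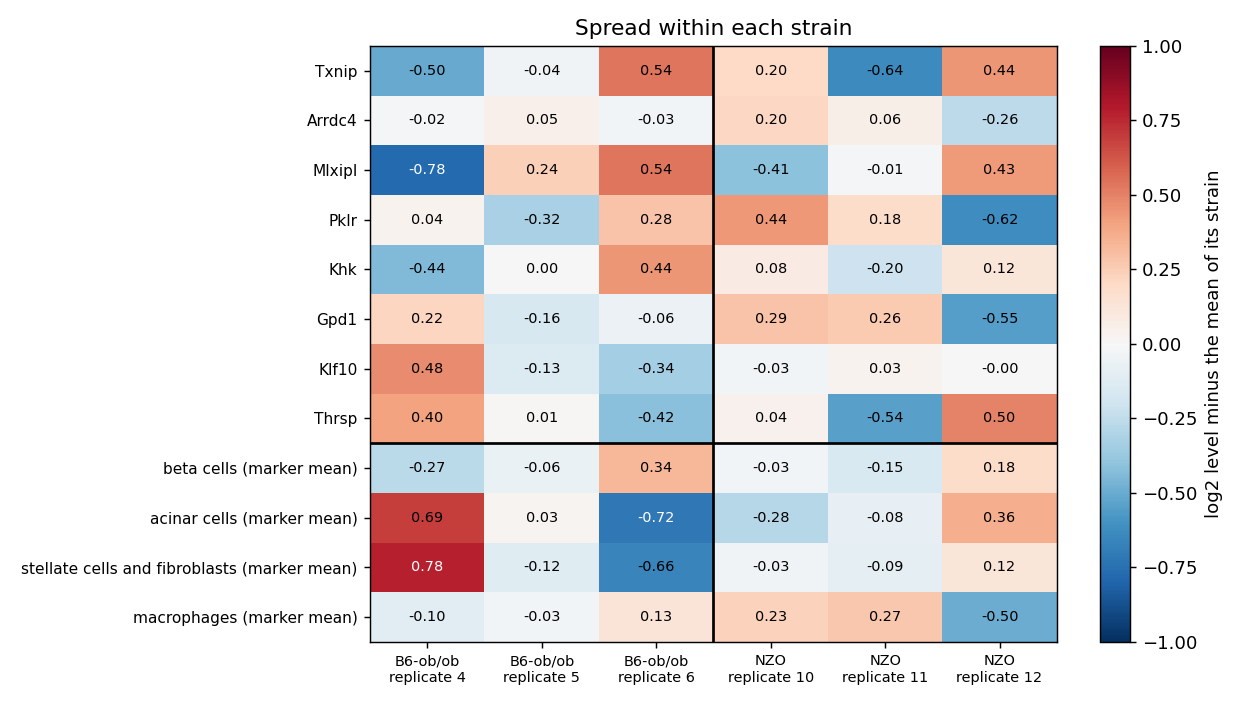
Deviation of each array from the mean of its strain (log2, colour and printed value) for the brightest probe of the 8 genes and for the mean of 4 marker lists; columns are the arrays and the vertical line parts the strains. Txnip, Mlxipl and Khk run from blue in B6-ob/ob replicate 4 to red in replicate 6, as the beta cell marker mean does. The summed level of the beta cell markers, not drawn, does not run that way. The acinar marker mean runs from red to blue.

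Markers of several cell types outside the endocrine islet were higher in NZO, as the 4 genes were. Of all genes, 13.2% were called higher and 8.92% lower. Counts of 0 or 1 in such short marker lists are not set apart from those shares. Of 7 measured acinar markers 6 were higher in NZO, with a summed level (log2) of 9.54 to 10.17 against 6.75 to 8.48, and 4 of 6 ductal markers were higher, at 7.33 to 7.85 against 6.43 to 8.03. Of 6 markers of stellate cells and fibroblasts 5 were higher (5.41 to 5.64 against 3.50 to 4.15), as were 3 of 5 macrophage markers (3.73 to 4.75 against 2.56 to 2.75). Of 5 endothelial markers 1, Esam, was higher, and the summed levels overlapped (4.67 to 5.06 against 4.80 to 4.85). Of 5 lymphocyte markers 2 were kept and 1 was higher (-1.80 to -1.44 against -2.51 to -1.98). The part of these cell types in the differences of Pklr, Arrdc4, Gpd1 and Klf10 was not tested. For fat cells, where Gpd1 is abundant, 3 of 7 markers were kept and 1, Cidec, was higher (summed level 4.06 to 4.11 against 2.88 to 3.81), while Adipoq, Plin1 and Retn were well above background on no array. Cfd was well above background on 1 NZO array and 0 B6-ob/ob arrays. The other kept markers did not pass: Fabp4 differed by 0.75 (limma adjusted p = 0.0760) and Lipe by 0.06 (0.843). For hepatocytes, where Pklr is abundant, 2 of 5 markers were kept, and Cyp2e1 was well above background on no array. Apoa1, not kept, was well above background on 2 NZO arrays and 0 B6-ob/ob arrays. Alb was higher in NZO. Ttr, which was also on the alpha cell list, differed by 0.20 (limma adjusted p = 0.668). The summed level of Alb and Ttr overlapped between strains (1.83 to 2.42 against 1.21 to 1.90). Of 7 beta cell markers 0 were called higher and 1, Nkx6-1, was called lower in NZO. Their summed level was 11.29 to 11.49 in NZO and 11.22 to 11.53 in B6-ob/ob.

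Other genes of the pathway were taken from lists written with earlier results of these data known. The partners and relatives of ChREBP and its cofactors showed no call: 0 of 6 Mondo family and Mlx partner genes and 0 of 11 cofactors passed in either direction, with medians of -0.11 and -0.06, beside 13.2% of all genes called higher and 8.92% lower. With so few genes a count of 0 is not set apart from those shares. The count takes only the brightest probe of each gene. Other kept probes differed by -1.59 and -0.20 for Hnf4a (brightest 0.31), so its probes disagree. Those of Hcfc1 differed by -1.54 and -0.15 (brightest -0.31). The other probe gave -1.12 for Usf2, -0.70 for Mxd1 and 0.04 for Foxo1, which alone had another probe above 0. Mlx, the obligate partner, differed by -0.39 (interval -0.69 to -0.10, limma adjusted p = 0.064), and Mlxip, the paralog MondoA, by -0.03 (adjusted p = 0.929).

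Of 19 measured other ChREBP targets 6 were higher and 0 lower in NZO, with a median difference of 0.34, beside 13.2% of all genes called higher. Fgf21, a hormone that liver releases on carbohydrate, differed by 2.85 (NZO -0.66 ± 0.51, B6-ob/ob -3.51 ± 0.57, SD, n = 3 each, limma adjusted p = 0.0034), and by 2.83 at its other probe. Pnpla3, a lipase-like protein of lipid droplets, differed by 2.47 (adjusted p = 0.0002). The fatty acid desaturase Scd1 differed by 1.76 and the acetyl-CoA carboxylase Acacb by 1.51, both steps of fatty acid handling. The clock-linked repressor Bhlhe40 differed by 1.69, and Gckr, a regulatory protein of liver, by 1.10. Scd1 and Gckr were dim in both strains, at -2.57 and -2.99 in NZO and at -4.33 and -4.09 in B6-ob/ob. Acacb and Pnpla3 stood at -0.74 and -0.77 in NZO and at -2.25 and -3.24 in B6-ob/ob. The Gckr call was lost without NZO 12, B6-ob/ob 5 or B6-ob/ob 6 (limma adjusted p = 0.0563, 0.0601 and 0.0511) and with slide as a block (0.0502), and the other 5 held in each of these fits. The remaining 13 did not pass, and Slc2a2, the glucose transporter of beta cells, stood at 3.43 ± 0.39 in NZO and 3.49 ± 1.29 in B6-ob/ob. At their other probes Acly differed by -1.86 (brightest 0.34) and Me1 by -1.51 (brightest 0.32), so their probes disagree. The other probes of Acaca (0.42 and 0.72) and Fasn (0.31) kept the sign of the brightest.

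Of the arrestin and thioredoxin list 1 of 7 measured genes was higher, Txnrd1, the cytosolic thioredoxin reductase, by 0.40 (limma adjusted p = 0.0492), and 0 were lower, close to the 13.2% and 8.92% of all genes. The Txnrd1 call was lost without any 1 of the 6 arrays (adjusted p = 0.0718 to 0.166) and with slide as a block (0.105). Txn1, the thioredoxin that the Txnip protein binds, differed by 0.19 (adjusted p = 0.688). Among 8 genes of fructose, glycerol phosphate and pyruvate kinase steps 0 were higher and 2 lower, beside 13.2% and 8.92% of all genes. Sord, which makes fructose from sorbitol, was at -2.56 ± 0.21 in NZO and 0.72 ± 0.05 in B6-ob/ob, a difference of -3.28 (adjusted p = 0.0001). Glyctk, the glycerate kinase of fructose breakdown, differed by -0.89 (adjusted p = 0.0156), a call lost without NZO 10, NZO 11 or B6-ob/ob 5 (0.0502, 0.0626 and 0.0595) and with slide as a block (0.0603). Gpd2, the mitochondrial enzyme of the glycerol phosphate shuttle, differed by -0.18 (adjusted p = 0.664). Pkm, the other pyruvate kinase gene, differed by 0.05 at its brightest probe (adjusted p = 0.831) and by -1.48 to -0.48 at 2 dimmer ones, so its probes disagree.

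Among 9 genes of glucose entry and phosphorylation 3 were higher and 1 lower, beside 13.2% and 8.92% of all genes, the lower count being near its background. The hexokinases Hk1, Hk2 and Hk3 differed by 0.65, 1.06 and 1.31 (limma adjusted p = 0.0315, 0.0048 and 0.0206). At its 2 other kept probes Hk1 differed by 0.07 and 0.56. Hk2 and Hk3 were dim, at -3.25 and -3.92 in NZO. The Hk3 call was lost without NZO 10 or B6-ob/ob 5 (adjusted p = 0.0580 and 0.0812), and that of Hk1 without any array but B6-ob/ob 4 (up to 0.124) and with slide as a block (0.121). Pgm1, which interconverts glucose phosphates, differed by -0.48 (adjusted p = 0.0260), a call that held only without B6-ob/ob 6 when arrays were left out (0.0572 to 0.111 otherwise), and that was lost with slide as a block (0.119). Of 10 Krüppel-like factor and Spot 14 relatives 0 were higher and 1 lower, near the 8.92% of all genes called lower. The lower gene was Klf3, which differed by -0.48 (limma adjusted p = 0.0415), but by 0.23 at its other probe, and its call was lost without any 1 array (adjusted p = 0.0531 to 0.141) and with slide as a block (0.0700). Mid1ip1, the closest relative of Thrsp, stood at 4.36 in both strains. Over the 7 lists 10 of 70 measured genes were higher and 4 lower, with a median of 0.07. These counts are near the 13.2% of all genes called higher and below the 8.92% called lower. The lower count rests on few genes and was not tested against that share.

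**Figure D4:**
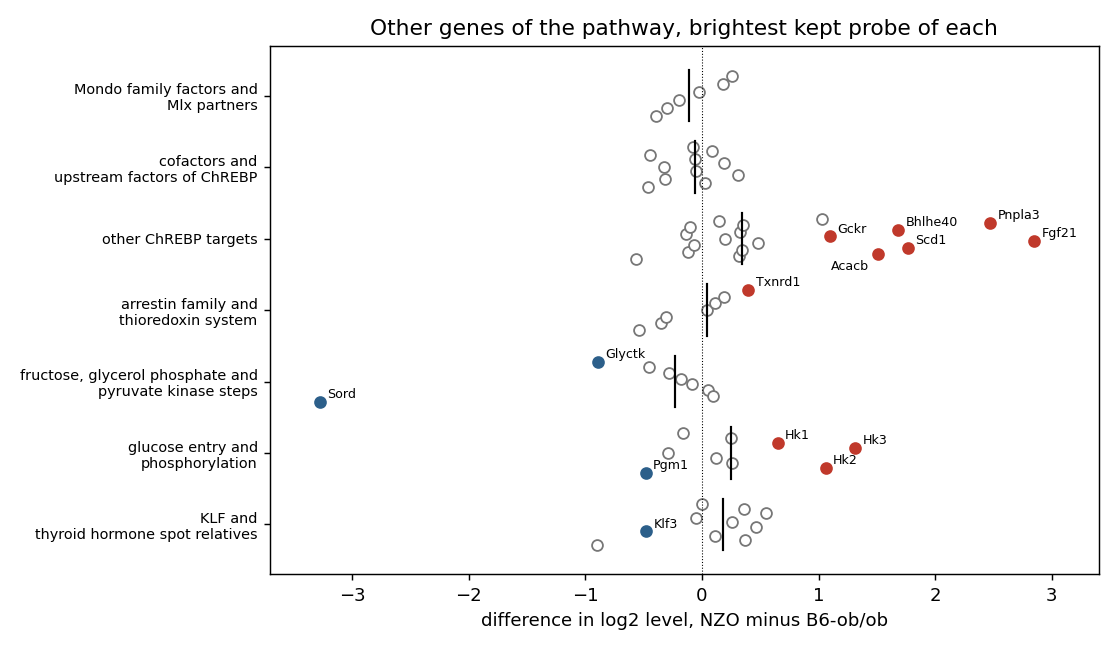
Difference of each measured gene of the 7 pathway lists (NZO minus B6-ob/ob, log2, brightest kept probe, horizontal axis); filled points passed the limma test at 0.05 (red higher, blue lower in NZO), open points did not, and black bars are list medians. The passing genes of the other ChREBP targets all lie at 1.10 or above, and Sord stands alone at -3.28.

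The genes whose levels tracked each member most closely over the 6 arrays were ranked by Pearson's r among 12437 genes. These correlations share the strain contrast and the scaling of the arrays and are descriptions. Txnip was nearest to Sla (r = 0.990), Csk and Spn, Mlxipl to Dtx3 (0.994), Smg1 and Bend4, and Khk to Klhl24 (0.997), Lhx1 and Esrra. Arrdc4 was nearest to Neurl2 (0.999), Slc11a1 and Rprml, Pklr to Ulk1 (0.998), Ccdc88b and Vasn, and Gpd1 to Zfp383 (0.998), Ttc25 and Icam5. Klf10 was nearest to Ackr1 (0.999), Sphk1 and Vim, and Thrsp to Esrp1 (0.986), Nap1l2 and Gatd3a. The number of genes past an r of 0.95 was 21 for Thrsp, 49 for Txnip, 64 for Mlxipl and 114 for Khk, against 264 for Gpd1, 427 for Klf10, 429 for Pklr and 566 for Arrdc4. The larger counts belong to the 4 genes that passed the strain test. A gene that parts the strains shares that contrast with all other genes that do. The counts therefore restate the strain test and add nothing on the members.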

How the data were processed

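Islet RNA was turned into Cy3-labelled cRNA per the labels' protocols and hybridised to 1-colour Agilent arrays (design 014868). The values used are the processed intensities, on a linear scale, that the authors deposited for each array. Per the file headers, Agilent Feature Extraction 10.5.1.1 subtracted the background and removed spatial trends, and arrays were not normalised to each other. The submitters' processing notes give version 9.1 instead. Probe positions come from the same files (mm9).

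Samples were grouped by their labels. Control spots were dropped, and 61 to 76 flagged spots an array were set to missing. Intensities were log2-transformed, averaged per probe and lowered by each array's 75th percentile. A probe was kept where 3 or more of the 6 arrays read it well above background (24628 of 41174). The two-sided test was limma's (version 3.58.1, with lmFit and eBayes, R 4.3.3). A gene was counted by its brightest kept probe. The functions were tested on simulated data.

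All 8 genes and every probe are named, with each list gene past the threshold, list genes tied to a member by role, and the 3 nearest genes by correlation. A gene that this rule names is not reported here. Members and lists were chosen with earlier results of these data known. Alternatives covered background and normalisation, the deposited value table, the filter, the probe summary, slide, array weights and each array left out.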

Additional observations from a re-analysis of the deposited data

How the results depend on the processing

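Arrdc4 (A_51_P111612) and Pklr passed under 17 of 17 and 16 of 16 tested alternatives other than the value table, Gpd1 (A_52_P16419) under 13 of 17 and Klf10 under 9 of 16. The junction probes of Arrdc4 (A_51_P482908) and Gpd1 (A_51_P293853) missed the threshold in the main fit. They passed under 7 of 15 and 4 of 15 of these alternatives. In the deposited value table, whose columns follow arrays of the other strain, 0 members were higher and 4 lower, and 4 list genes were higher and 9 lower. Its differences were -0.54 for Txnip (A_52_P420792), -1.21 and -1.16 for Arrdc4, -0.22 and -0.17 for Mlxipl, -2.29 for Pklr, -0.33 for Khk (A_52_P72434), -1.08 for Gpd1 (A_51_P293853), -0.90 for Klf10 and 0.76 for Thrsp. The brighter Gpd1 probe, A_52_P16419, was not tested in that table. Gpd1 was counted there at A_51_P293853 (limma adjusted p = 0.0176), which did not pass in the main fit. Of 18309 probes tested there 4051 were called, 1872 of them higher. With slide as a fixed block 3 members were higher and 1 lower, and 1 list gene was lower. With slide as a random block 4 members were higher and 0 lower. With array weights 1 member was lower, 16 list genes were higher and 14 lower. With the mean of a gene's probes 9 list genes were lower, and with no filter 2. Without each replicate in turn, 2 to 4 members were higher, 6 to 9 list genes higher and 1 to 5 lower. Within slide 3 the sign turned for Txnip (-0.33 and -0.56), Mlxipl (-0.16 and -0.43) and Khk (-0.042 and -0.18). For Mlxipl it also turned with array weights (-0.052 and -0.035), without B6-ob/ob 4 (-0.14 and -0.26) and without NZO 12 (-0.11 at A_52_P423188). Leaving out each array in turn gave Mlxipl -0.14 to 0.52 and -0.26 to 0.54. Over all 24628 kept probes 5376 were called, against 10394 with array weights and 3645 with slide as a fixed block. Without NZO 10, NZO 11 or B6-ob/ob 5 the counts were 3476, 3191 and 2814. With no filter 4433 of 41174 probes were called, and with the mean of a gene's probes 3744 of 16384 genes. The cause of these changes was not tested. No paired analysis by replicate number was possible because the strains share no numbers, and slide was the block used.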
